A study of Mus musculus with 6 samples.

Results

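N6-methyladenosine (m6A) is the most common internal modification of messenger RNA. A nuclear complex of writers adds it, a pair of demethylases can remove it, and reader proteins bind the methylated base and decide how long the mRNA lasts or how well it is translated. IGF2BP1, the target of the hairpin in these cells, is one of the readers and is known for stabilising the mRNAs it binds. The 10 genes described here were taken by name from the deposited table, with no threshold on their values, though earlier results of these data were known: the writer-complex genes Mettl3, Mettl14, Wtap, Virma and Rbm15, the erasers Fto and Alkbh5, and the cytoplasmic YTH readers Ythdf1, Ythdf2 and Ythdf3. All 10 were found among the 43629 genes of the table, and all 10 passed the filter on low counts that left 13445 genes to be tested.

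M1 is a mouse neuroblastoma cell line. The libraries labelled shIGF2BP1 (3) carried a short hairpin RNA against IGF2BP1 and are labelled as a knockdown genotype, and the libraries labelled shNT (3) carried a non-targeting hairpin and are labelled wild type. Both groups were treated with doxycycline at 4 to 6 µg/ml for 6 days to switch the hairpin on, so both carry an induced hairpin and the drug. The labels name 1 hairpin against IGF2BP1, so its effect and any other difference between the cells cannot be told apart. Separate cultures are not mentioned for the replicates, and the p-values below measure the spread between these 6 libraries, which may be technical.

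Library totals were 25119655 to 34014482 counts in the libraries labelled shIGF2BP1 and 30756389 to 35373076 in shNT. A lower level of the targeted mRNA could not be shown. Igf2bp1 had 67, 35 and 311 counts in the libraries labelled shIGF2BP1 and 37, 175 and 201 in shNT, a log2 fold change of 0.25 with a 95% interval from -1.50 to 2.00 (edgeR quasi-likelihood test, adjusted p = 0.966). The sign rested on single libraries: the log2 fold change was -1.24 without shIGF2BP1 replicate 3 (edgeR adjusted p = 0.771) and -0.18 without shNT replicate 1 (edgeR adjusted p = 0.952). Directions below compare libraries by their labels, since a loss of Igf2bp1 was not measured across all 3. Of the sympathetic markers, Hand2, Gata3, Isl1 and Mycn were expressed in every library, while Th and Dbh had 0 counts in all 6. The defining leukocyte marker Ptprc had 0 or 1 count per library, and the T cell marker Cd3e and the glial markers Sox10 and S100b had 0. Of the 5 leukocyte markers 2 could be tested and 0 were called: Cd68 had 4.12 ± 1.27 CPM in the libraries labelled shIGF2BP1 and 11.8 ± 3.60 CPM in shNT (SD, n = 3 each), while Fcer1g was higher, with 10, 20 and 10 counts in the libraries labelled shIGF2BP1 and 0, 6 and 1 in shNT. The summed level of the 5 was 3.54 to 6.29 CPM in the libraries labelled shIGF2BP1 and 7.78 to 14.8 CPM in shNT. Most of that sum was Cd68 alone, at 3.13 to 5.56 CPM in the libraries labelled shIGF2BP1 and 7.78 to 14.6 CPM in shNT. The part of the summed level in the results was not tested. In such bulk samples fewer cells of a type and less RNA per cell cannot be told apart.

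The sequences below show what sets the genes apart at the points where function and counting depend on it. Mettl3 holds the catalytic motif of the writer complex, and Mettl14 is its inactive partner, with a changed motif at the matching place. The coding sequences are printed from the GENCODE annotation of GRCm38 with the motif codons in capitals.
Mettl3: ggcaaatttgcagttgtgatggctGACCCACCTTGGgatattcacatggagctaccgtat
Mettl14: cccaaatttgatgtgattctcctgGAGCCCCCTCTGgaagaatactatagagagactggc

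The 3 Ythdf genes encode closely related proteins, which raises the question of whether short reads can tell their mRNAs apart. Their most alike stretch of 60 coding bases, with every position at which the 3 genes are not all identical in capitals, still holds 14 differing positions.
Ythdf1: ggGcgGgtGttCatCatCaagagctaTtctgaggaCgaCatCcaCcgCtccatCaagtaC
Ythdf2: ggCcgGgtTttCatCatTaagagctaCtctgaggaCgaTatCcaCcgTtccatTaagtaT
Ythdf3: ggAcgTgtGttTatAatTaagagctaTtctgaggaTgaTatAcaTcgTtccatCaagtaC

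Over the aligned coding sequence Ythdf1 and Ythdf2 were identical at 67.2% of bases, Ythdf1 and Ythdf3 at 69.3%, and Ythdf2 and Ythdf3 at 70.8%. The longest run of identical bases was 22, well under the read length of 53 bases, and no window of 53 bases was shared between them. Ythdf2 did share 7.82% of its 53-base windows with processed pseudogenes, and Wtap shared 17% of its own. Counts assigned to those copies were low: 18 to 27 per library for Gm8401 beside 2369 to 2976 for Ythdf2, and 32 to 92 for Gm14292 beside 1509 to 1952 for Wtap. Reads that match a gene and its copy equally well could still be missing from both, so the Ythdf2 and Wtap counts are less certain than those of Ythdf1 and Ythdf3. Of the Mettl3 exon bases, 18.4% lie opposite exons of Tox4 on the other strand, and no source used here gives the strand setting of the counting, which leaves the Mettl3 counts uncertain too.

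None of the 10 genes passed the test between the groups. The edgeR quasi-likelihood test called 0 of 10 at an adjusted p under 0.05, against 0.0223% of all genes tested (3 of 13445), and 0 of 10 were under 0.05 without adjustment, against 7.16% of all genes. DESeq2 and limma-voom also called 0 of 10. The log2 fold changes were -0.46 to 0.14, with 6 negative and 4 positive and a median of -0.25, beside a median of -0.012 over all genes tested. For 9 of the 10 the 95% interval lay within 1 log2 unit of no change in either direction, and Rbm15 was the exception. The same held for 8343 of all 13445 genes tested. Each interval of the 10 held 0, as did those of 12483 of the 13445, so smaller differences could not be resolved in these 6 libraries. Counting error was small beside these intervals. Counts ran from 618 for Mettl3 in shIGF2BP1 replicate 1, with a 95% Poisson interval of 570 to 669 that covers counting error alone, to 7042 for Alkbh5 in shNT replicate 2.

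**Figure D1:**
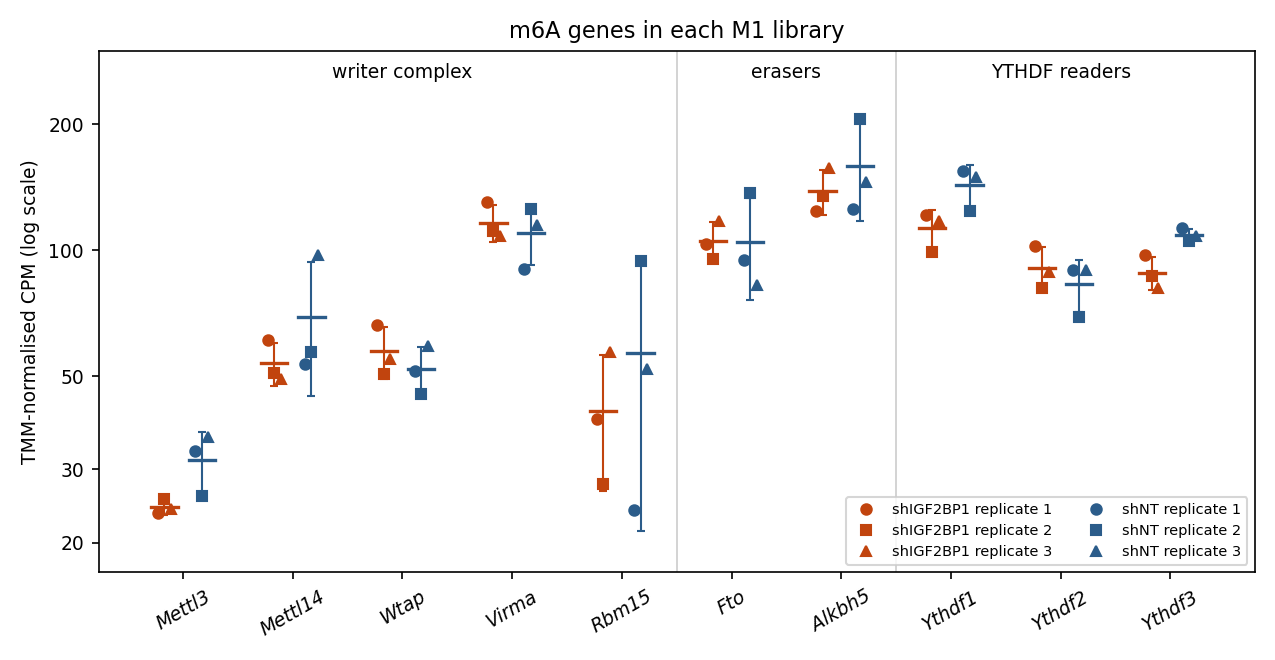
TMM-normalised CPM of the 10 m6A genes on a log axis, with a point for each library, and a line and bar for the mean and SD of each group of 3. Mettl3, Ythdf1 and Ythdf3 have all 3 libraries labelled shIGF2BP1 below all 3 shNT libraries, and Rbm15 spreads most, from 24 to 94.3 CPM within shNT.

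Mettl3 (ENSMUSG00000022160; minus strand of chromosome 14, 52294841 to 52305128 in GRCm38) encodes the catalytic methyltransferase. It had 23.6, 25.4 and 24.1 CPM in the libraries labelled shIGF2BP1 and 33.1, 25.8 and 35.9 CPM in shNT. The groups did not overlap, but shNT replicate 2 lay next to the libraries labelled shIGF2BP1. The log2 fold change was -0.38 ± 0.22 (SE; interval -0.85 to 0.10, edgeR adjusted p = 0.778). Mettl14 (ENSMUSG00000028114; minus strand of chromosome 3, 123368297 to 123386108), the RNA-binding partner that holds Mettl3 in its active form, had 60.9, 50.9 and 49.3 CPM in the libraries labelled shIGF2BP1 and 53.4, 57.2 and 97.4 CPM in shNT. The groups overlapped, and a single library, shNT replicate 3, stood above the rest. Its log2 fold change of -0.37 ± 0.25 (edgeR adjusted p = 0.819) became -0.043 without that library.

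Wtap (ENSMUSG00000060475; minus strand of chromosome 17, 12966796 to 12994169) encodes the adaptor that brings the catalytic pair to nuclear speckles. It had 66.4, 50.7 and 55 CPM in the libraries labelled shIGF2BP1 and 51.5, 45.3 and 59 CPM in shNT, which overlap (log2 fold change 0.14 ± 0.20 SE, edgeR adjusted p = 0.928). Virma (ENSMUSG00000040720; plus strand of chromosome 4, 11485958 to 11550684), the large scaffold known for steering methylation towards the end of the transcript, had 130.2, 111 and 108 CPM in the libraries labelled shIGF2BP1 and 90.5, 125 and 115 CPM in shNT. Here too the groups overlapped, with a log2 fold change of 0.08 ± 0.20 and an edgeR adjusted p of 0.957.

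Rbm15 (ENSMUSG00000048109; minus strand of chromosome 3, 107325421 to 107333673) encodes an RNA-binding protein that recruits the writer complex to its sites, among them the Xist RNA. It differed more between libraries of one label than between labels. The libraries labelled shIGF2BP1 had 39.5, 27.7 and 57.1 CPM, and those labelled shNT had 24, 94.3 and 52.1 CPM, so that the highest and the lowest value of all 6 were both in shNT. The highest was 3.93 times the lowest, while for the other 9 genes this ratio was 1.39 to 1.97. The SD of log2 CPM over the 6 libraries was 0.72 for Rbm15, larger than in 96.6% of the 10479 genes with a mean of 5 CPM or more, whose median was 0.29. The log2 fold change was -0.46 ± 0.43 (SE; interval -1.39 to 0.48, edgeR adjusted p = 0.885), and it turned to 0.12 without shNT replicate 2.

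The erasers are oxygenases that need iron and 2-oxoglutarate. Fto (ENSMUSG00000055932; plus strand of chromosome 8, 91313525 to 91668439), which also demethylates the m6Am base beside the cap, had 104, 95.5 and 118 CPM in the libraries labelled shIGF2BP1 and 95.1, 137 and 82.5 CPM in shNT. The shNT libraries lay on both sides of the others, and the log2 fold change was 0.0079 ± 0.23 (SE; interval -0.49 to 0.50, edgeR adjusted p = 0.996). Alkbh5 (ENSMUSG00000042650; plus strand of chromosome 11, 60536381 to 60558512), a nuclear m6A demethylase, had 124, 135 and 157 CPM in the libraries labelled shIGF2BP1 and 126, 207 and 146 CPM in shNT. The groups overlapped. Its log2 fold change of -0.20 ± 0.23 (edgeR adjusted p = 0.902) rested on shNT replicate 2 and was 0.028 without it.

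The YTHDF proteins bind m6A in the cytoplasm and are known mainly for bringing methylated mRNAs to decay. Ythdf1 (ENSMUSG00000038848; minus strand of chromosome 2, 180904377 to 180920949), first described as a promoter of translation, had 121, 99.2 and 118 CPM in the libraries labelled shIGF2BP1 and 155, 124 and 150.1 CPM in shNT. Every library labelled shIGF2BP1 was below every shNT library, by little at the nearest pair. Its log2 fold change was -0.34 ± 0.19 (SE; interval -0.77 to 0.08, edgeR adjusted p = 0.775). Ythdf3 (ENSMUSG00000047213; plus strand of chromosome 3, 16183212 to 16217037) likewise had 97.3, 86.7 and 81.4 CPM in the libraries labelled shIGF2BP1 and 113, 105 and 108 CPM in shNT, without overlap (log2 fold change -0.30 ± 0.18 SE, interval -0.70 to 0.10, edgeR adjusted p = 0.787). Ythdf2 (ENSMUSG00000040025; minus strand of chromosome 4, 132184912 to 132212303), the reader that recruits the CCR4-NOT deadenylase, had 103, 81.4 and 89 CPM in the libraries labelled shIGF2BP1 and 89.7, 69.5 and 90.0 CPM in shNT. Those groups overlapped, and the log2 fold change was positive, 0.13 ± 0.20 (edgeR adjusted p = 0.932).

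In all, 3 of the 10 genes (Mettl3, Ythdf1 and Ythdf3) were lower in the libraries labelled shIGF2BP1 without overlap between the groups, against 5.59% of all genes tested, and 0 of 10 were higher without overlap, against 6.06%. For each of the 3, a two-sided exact permutation test of mean log2 CPM gave p = 0.1, the smallest that 3 against 3 libraries allow. Groups without overlap always give that p, so the test is no separate evidence. The separation depended on the scaling: when CPM was computed from library size alone, without TMM factors, 0 of the 10 were lower without overlap. Leaving out each library in turn gave log2 fold changes of -0.50 to -0.28 for Mettl3, -0.44 to -0.25 for Ythdf1 and -0.37 to -0.25 for Ythdf3. Where the groups do not overlap, leaving out a library can hardly turn the sign, so these values are no separate evidence either.

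**Figure D2:**
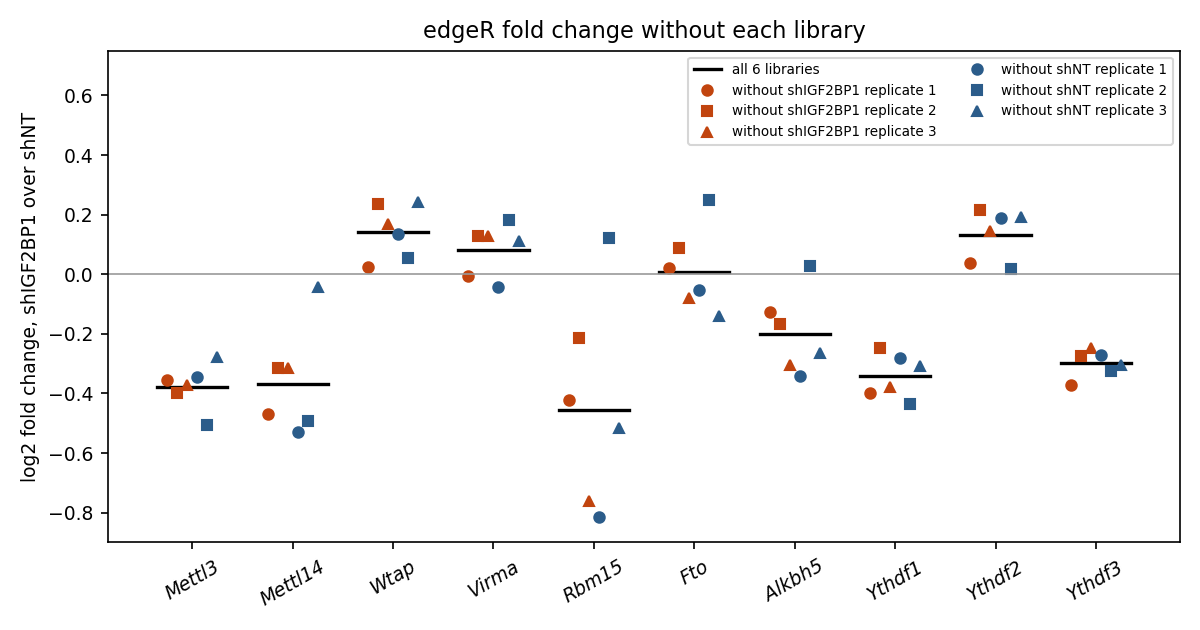
edgeR log2 fold change (shIGF2BP1 over shNT) of each gene with all 6 libraries (black line) and without each library in turn (points, coloured by the group of the library left out). Mettl3, Mettl14, Ythdf1 and Ythdf3 stay below 0 throughout, Wtap and Ythdf2 stay above it, and Rbm15 runs from -0.82 to 0.12.

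Ratios between genes of the same library do not depend on the scaling. The level of Ythdf1 over that of Ythdf2, both per kilobase of annotated exon, was 1.63, 1.68 and 1.83 in the libraries labelled shIGF2BP1 and 2.38, 2.46 and 2.30 in shNT. The mean ratio was 1.71 ± 0.10 against 2.38 ± 0.08 (SD, n = 3 each), and the groups were apart by more than the spread within either. The level of Ythdf3 over that of Ythdf2 was 0.81, 0.91 and 0.78 in the libraries labelled shIGF2BP1 and 1.08, 1.29 and 1.02 in shNT, again without overlap. These ratios were picked out after the values were seen and were given no test. Of the 45 ratios that 10 genes allow, 8 separated the groups, against 12.1% of all pairs among 13394 tested genes with counts in every library. Of those 8, 7 hold Mettl3, Ythdf1 or Ythdf3, the genes already described as not overlapping, so the ratios are no separate evidence. The gap between the groups was widest for Ythdf1 over Ythdf2. Mettl3 over Mettl14, the catalytic pair, did not separate them, at 0.57, 0.73 and 0.71 in the libraries labelled shIGF2BP1 and 0.91, 0.66 and 0.54 in shNT. Alkbh5 over Fto did not either, at 2.61 to 3.07 in the libraries labelled shIGF2BP1 and 2.88 to 3.85 in shNT.

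**Figure D3:**
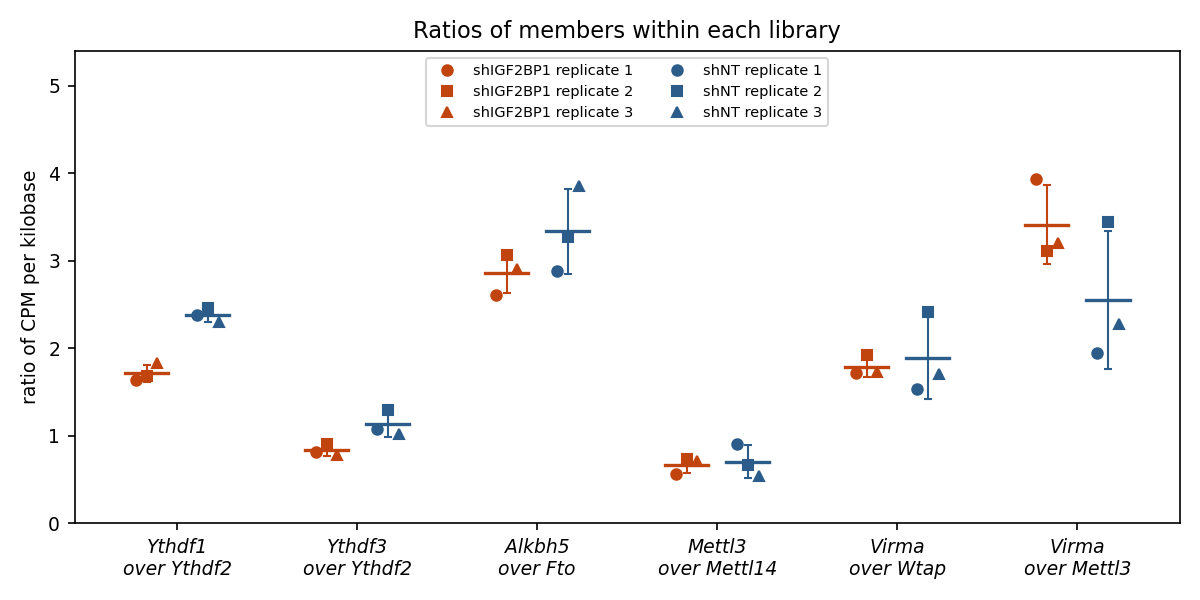
Ratios of CPM per kilobase between pairs of m6A genes within each library, with the mean and SD of each group of 3. Ythdf1 over Ythdf2 and Ythdf3 over Ythdf2 are lower in all 3 libraries labelled shIGF2BP1 than in all 3 shNT libraries, while the other 4 ratios overlap.

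The 10 genes differed far more from each other than between groups. Per kilobase of annotated exon and averaged over the 6 libraries, Ythdf1 had the highest level, 38.6 ± 6.34 CPM per kilobase (SD, n = 6), and exceeded Alkbh5, at 24.9 ± 5.15, in 6 of 6 libraries. Alkbh5 was above Ythdf2 (19 ± 2.40) in 5 of 6 libraries. By this length the order of Ythdf2 and Ythdf3 (18.4 ± 2.34) followed the label. Ythdf2 was higher in the 3 libraries labelled shIGF2BP1 and Ythdf3 in the 3 shNT libraries, as their ratio above shows. The ratio in shNT replicate 3 was only 1.02, and the order there turns when the longest transcript is the length. Virma (15.9 ± 1.96) was above Wtap (8.75 ± 1.18) in 6 of 6. The order within Wtap, Mettl14 (8.29 ± 2.44), Fto (8.08 ± 1.50), Rbm15 (6.61 ± 3.46) and Mettl3 (5.51 ± 1.02) changed in part from library to library. By annotated exon length Mettl3 was below Wtap and below Mettl14 in 6 of 6. The median over 13353 tested genes with an annotated length was 7.37 CPM per kilobase, so that Ythdf1 stood above 89.4% of them and Mettl3 above 42.2%.

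This order depends on which length is used. Fto and Mettl3 have annotated exons that their longest transcript does not include, 13031 against 4707 bases and 5076 against 2159. Divided by the longest transcript, the level of Fto was 22.4 CPM per kilobase, that of Wtap 17.2 and that of Mettl3 13. Ythdf1 (40.2) and Alkbh5 (26) remained the highest, and Mettl3 was then above Mettl14 (8.55).

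**Figure D4:**
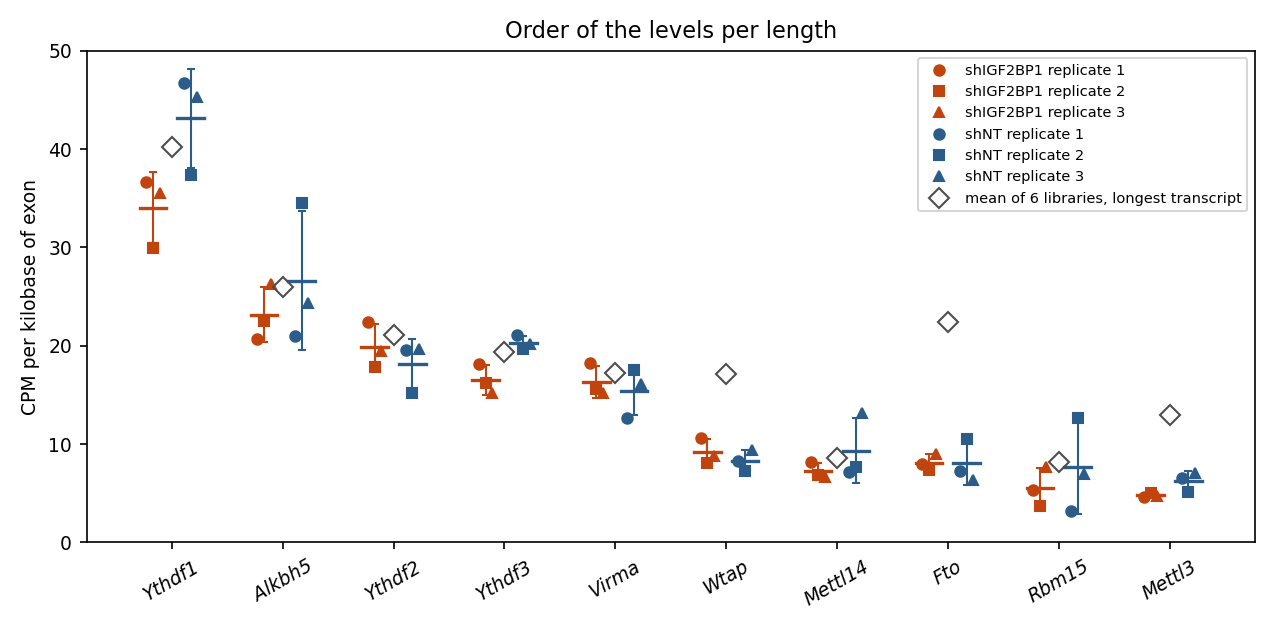
Level of each gene in CPM per kilobase of annotated exon, ordered by the mean of the 6 libraries, with points for libraries, lines and bars for the mean and SD of each group of 3, and open diamonds for the mean of 6 when the longest transcript is the length. The readers and Alkbh5 lie on the left, and Fto, Wtap and Mettl3 are the genes that the choice of length moves most.

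The remaining genes of the pathway were read from the same fit as lists, chosen with earlier results of these data known. Of 37 tested genes other than Igf2bp1, 0 passed the edgeR test, and DESeq2 and limma-voom also called 0. At an unadjusted p under 0.05 edgeR counted 3 of the 37, against 7.16% of all genes tested. Without overlap between the groups, 3 of the 37 were lower in the libraries labelled shIGF2BP1, against 5.59% of all genes, and 1 was higher, against 6.06%. Over all genes tested, 6925 of 13445 had a negative log2 fold change, with a median of -0.012. The other writers comprise further subunits of the complex, separate m6A methyltransferases and the cap enzyme Pcif1. Their log2 fold changes were negative in 8 of 8 genes with a median of -0.32, and 0 were called. The smallest p among them belonged to Trmt112, the cofactor of the ribosomal RNA methyltransferase Mettl5. It had 15.3, 20.8 and 17.2 CPM in the libraries labelled shIGF2BP1 and 44.8, 24.6 and 28.1 CPM in shNT, without overlap (log2 fold change -0.87 ± 0.27 SE, edgeR adjusted p = 0.547). Trmt112 has processed copies, one of which, Trmt112-ps2, held 187 to 265 counts in the libraries labelled shIGF2BP1 and 327 to 535 in shNT, and 39.1% of its exon bases lie opposite other genes, so its counts are uncertain. Cbll1, Mettl5, Hnrnpa2b1, Fmr1, Fxr1, Elavl1, Matr3, Pabpc1, Cnot2 and Cnot7 also share sequence with, or overlap, another annotated gene, and carry the same limit to differing degrees. Cbll1, the Hakai subunit of the writer complex, had 20.8, 23.2 and 25.3 CPM in the libraries labelled shIGF2BP1 and 31.2, 33.7 and 28.4 CPM in shNT (log2 fold change -0.43 ± 0.21, edgeR adjusted p = 0.734). Mettl5 had 12.6 ± 2.14 CPM in the libraries labelled shIGF2BP1 and 18 ± 4.53 CPM in shNT (SD, n = 3 each, edgeR adjusted p = 0.755).

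The other readers gave 7 positive and 4 negative log2 fold changes in 11 tested genes, Igf2bp1 included, with a median of 0.16 and 0 called. Hnrnpa2b1, a nuclear RNA-binding protein linked to m6A, had 1188 ± 137 CPM in the libraries labelled shIGF2BP1 and 889 ± 254 CPM in shNT (SD, n = 3 each, edgeR adjusted p = 0.814). Fmr1, the fragile X protein gene, had 137 ± 27.5 and its paralog Fxr1 had 241 ± 27.9 CPM in the libraries labelled shIGF2BP1, against 113 ± 22.1 CPM for Fmr1 and 206 ± 49.7 CPM for Fxr1 in shNT (edgeR adjusted p = 0.856 and 0.893). The RNA-binding proteins Elavl1, Matr3 and Pabpc1, known as partners of IGF2BP proteins on mRNA, had log2 fold changes of 0.10, 0.16 and -0.13, and 0 of 3 were called.

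The CCR4-NOT complex shortens the poly-A tail of the mRNAs that Ythdf2 brings to it. Among its 10 genes the log2 fold change was positive in 7 and negative in 3, with a median of 0.08, and 0 were called. Cnot7, a catalytic deadenylase subunit, had 62.8, 55.3 and 53 CPM in the libraries labelled shIGF2BP1 and 77.9, 73.4 and 75.7 CPM in shNT. The groups did not overlap, with a log2 fold change of -0.41 ± 0.18 (SE) and an edgeR adjusted p of 0.695. Cnot6, another deadenylase, had 252, 143 and 170.0 CPM in the libraries labelled shIGF2BP1 and 182, 142 and 119.9 CPM in shNT, which overlap (edgeR adjusted p = 0.836). Cnot2, a scaffold subunit, had 81.9 ± 7.14 and 72.6 ± 3.06 CPM in the libraries labelled shIGF2BP1 and in shNT (SD, n = 3 each, edgeR adjusted p = 0.893).

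Genes that supply S-adenosylmethionine, the methyl donor, had a positive log2 fold change in 1 case and a negative one in the other 5, with a median of -0.027, and 0 were called. The positive one was Mtr, the methionine synthase that remakes methionine from homocysteine, with 55.4, 43 and 55.2 CPM in the libraries labelled shIGF2BP1 and 26.8, 33.4 and 42 CPM in shNT. The groups did not overlap (log2 fold change 0.59 ± 0.23 SE, edgeR adjusted p = 0.681). Ahcy, which clears the by-product of methylation, had 174 ± 45.4 CPM in the libraries labelled shIGF2BP1 and 215 ± 37 CPM in shNT (SD, n = 3 each, edgeR adjusted p = 0.856), and shares 76.6% of its 53-base windows with other loci. Mat2a, the enzyme that makes S-adenosylmethionine outside the liver, had 17, 48 and 16 counts in the libraries labelled shIGF2BP1 and 46, 31 and 13 in shNT (edgeR adjusted p = 0.982).

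**Figure D5:**
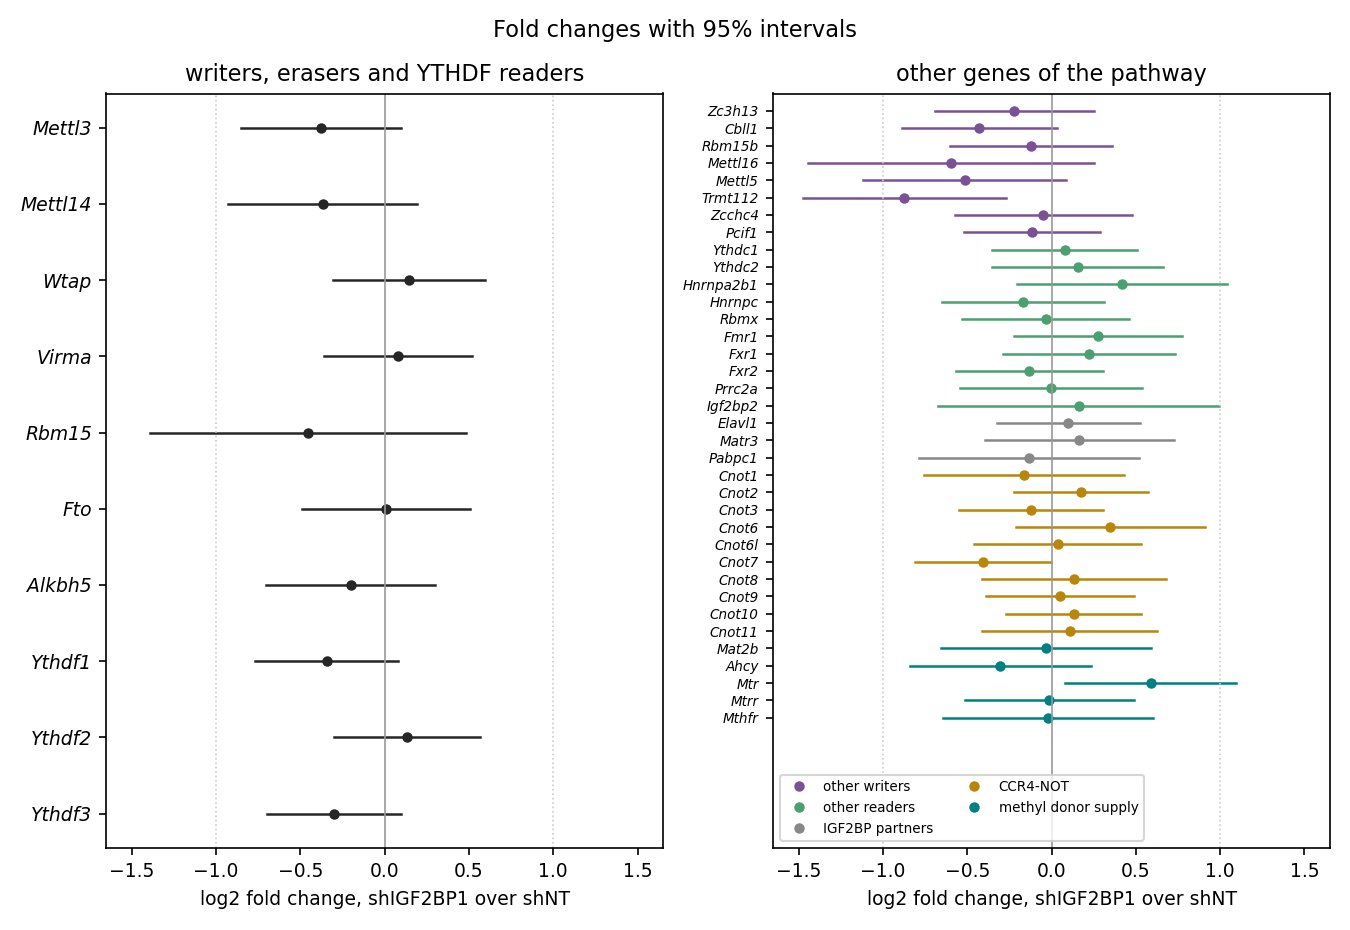
edgeR log2 fold changes (shIGF2BP1 over shNT; points) with unadjusted 95% intervals (lines) for the 10 m6A genes and for other tested genes of the pathway coloured by list, without Igf2bp1 and Mat2a, whose few counts give wide intervals. In the left panel each interval crosses 0 and the Rbm15 interval alone passes the dotted line at 1 log2 unit.

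By the root-mean-square difference of centred log2 CPM over the 6 libraries, the genes whose pattern was most like that of Mettl3 among 10449 genes were Selenok (0.03), Extl3 (0.04) and Rab31 (0.04), against a median of 0.35. Selenok had 42.4, 44.3 and 41.1 CPM in the libraries labelled shIGF2BP1 and 58.2, 44.5 and 60.6 CPM in shNT. For Ythdf1, the member with the smallest p, they were Gm12261 (0.05), Rwdd4a (0.05) and Champ1 (0.06), against a median of 0.34.

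The core of the m6A consensus, searched here as GGACT on the sense strand of the transcript with the longest coding sequence, was spread unevenly over the 10 mRNAs. Wtap had 2.43 matches per kilobase, Mettl3 1.98 and Alkbh5 1.75, while Ythdf1 had 0.44 and Ythdf3 0.20. The median over 11472 tested genes was 1.05 per kilobase, and 91.7% of them held at least 1 match. Wtap was denser than 94% of those genes, and Ythdf3 was denser than 8.58% of them. A match is a string of letters and not a measured m6A site.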

How the data were processed

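The authors deposited 1 table of unnormalised read counts per gene for 6 poly-A libraries. Its values are whole numbers whose totals differ between libraries. GRCm38 is the build, and HISAT2 2.1.0, bcl2fastq and HTSeq are the tools, in the submitters' processing notes. Library preparation kept the strand and both ends were read for 53 cycles, per the labels' protocols. Annotation release, strand setting and filters: not given in the sources used here. The table has 43629 mouse gene IDs and 92 spike-in rows that hold 0 counts. Symbols, lengths and positions came from GENCODE release M21 on GRCm38, which matched 42548 IDs, and the 1081 without a symbol held 0.111% of counts.

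After TMM scaling the counts went into edgeR 4.0.16 (R 4.3.3; quasi-likelihood F test, robust, two-sided, no covariate), over the 13445 genes kept by filterByExpr (minimum count 10, minimum total 15), with Benjamini-Hochberg adjustment over all of them and a threshold of 0.05. SEs and 95% intervals were derived from the F statistic. CPM and CPM per kilobase were computed here. The library-level log2 values used CPM plus 0.5. The alternatives were RLE factors, library size only, no filter, mean CPM of 5 or more, a replicate block, leaving out each library, DESeq2 1.42.0, limma-voom (limma 3.58.1) and a threshold of 0.01. No libraries agreed within sampling noise.

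The 10 genes and all lists were chosen with earlier results of these data known. The text names all 10, Igf2bp1, up to 3 genes of each list with the smallest p, and the 3 genes most like Mettl3 and most like the gene of the 10 with the smallest p. Markers and the genes of the closing section outside this rule were named after their values were seen.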

Additional observations from a re-analysis of the deposited data

How the results depend on the processing

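The count of 0 called among the 10 m6A genes, and of 0 among the 37 other pathway genes, was the same in all 14 alternatives. The smallest adjusted p of any of the 10 in 13 refits was 0.342, for Rbm15 without shNT replicate 1. Over all genes, 3 calls became 138 without a filter, 82 with DESeq2, 18 with the replicate block, and 1 with mean CPM of 5 or more, with limma-voom or at a threshold of 0.01, and 1 to 5 when libraries were left out. For Igf2bp1 limma-voom gave -0.24, the fit blocked on replicate number gave -0.047, and single omissions gave -1.24 to 0.76. Leaving out libraries turned the sign of 4 of the 10 genes, none of them called: Virma ran from -0.043 to 0.18 (-0.0062 without shIGF2BP1 replicate 1), Rbm15 from -0.82 to 0.12, Fto from -0.14 to 0.25 (-0.08 without shIGF2BP1 replicate 3, -0.05 without shNT replicate 1) and Alkbh5 from -0.34 to 0.028. Of the pathway genes, Matr3 ran from -0.017 to 0.32, Elavl1 from -0.050 to 0.20 and Mat2a from -0.62 to 0.42, with 0.014 in limma-voom. The cause was not tested. Mettl3, Mettl14, Wtap, Ythdf1, Ythdf2 and Ythdf3 kept their sign in all 13 refits. For Mettl3, Ythdf1 and Ythdf3, whose groups did not overlap, leaving out a library could hardly have turned it. The count of genes lower without overlap, recomputed with other scalings after the data were seen, was 3 with RLE factors and 0 with library size only, which moved the median log2 fold change of all genes from -0.012 to 0.07. Mat2a and Igf2bp1 have no value at mean CPM of 5 or more. Deviations from the group means correlated at 0.24, -0.12 and 0.33 between libraries of equal number, and at -0.40 to 0.22 between the others. For replicates 1 and 3 the library of equal number was the most alike, and a batch shared by number was not tested. The main fit did not pair the libraries, and the block changed no call among the 10. Because counts were deposited, the alternative planned for normalised units was left out as not run.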

Other observations

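The genes in this paragraph were chosen after their values were seen. The libraries hold little mRNA of the IGF2BP family itself. Igf2bp2 had 4.85 ± 1.57 CPM in the libraries labelled shIGF2BP1 and 4.33 ± 0.76 CPM in shNT (SD, n = 3 each), and Igf2bp3 had 3 to 7 counts per library and was too low to test. Ythdc1, the nuclear YTH reader, had 93.1, 102 and 86.2 CPM in the libraries labelled shIGF2BP1 and 89.9, 102 and 74.5 CPM in shNT, with groups that overlap (edgeR adjusted p = 0.958). Mettl16, the separate methyltransferase that acts on U6 and on Mat2a RNA, had 57.5, 46.6 and 82 CPM in the libraries labelled shIGF2BP1 and 46.3, 78.5 and 157 CPM in shNT, where it spread most (edgeR adjusted p = 0.80). Mat2a, its known target, was counted at 0.583 to 1.36 CPM in the libraries labelled shIGF2BP1 and 0.393 to 1.55 CPM in shNT, beside 54.7 to 67.1 CPM and 34.4 to 76.2 CPM for its regulatory partner Mat2b. Other annotated loci share 7.20% of the 53-base windows of Mat2a, and an opposite-strand transcript covers 11.3% of its exon bases. Their part in the low Mat2a counts was not tested.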
